A study of Mus musculus with 8 samples.

Results

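The m6A writer complex is the nuclear enzyme assembly that places N6-methyladenosine (m6A) on mRNA. The genes of 8 of its subunits, Mettl3, Mettl14, Wtap, Virma, Rbm15, Rbm15b, Zc3h13 and Cbll1, were taken by symbol from a table of 43432 mouse genes, and each symbol matched a single row. Read counts came from poly(A)-selected RNA of mouse lenses at embryonic day 14.5, with 4 control libraries and 4 libraries labelled Mettl3 CKO, by common usage a conditional knockout. All 8 members passed the filter on low counts, which 16241 genes passed in all. The labels give the genotypes only as control and Mettl3 CKO and name no strain, no Cre driver, no deleted exon and no number of lenses or animals per library, so the cells in which Mettl3 was lost are not known here. Both genotypes have replicates a to d. The records of replicates a and b (set 1) and of c and d (set 2) stand in 2 separate blocks of consecutive records, so the set was a term of the model, although no label calls it a batch. No label says that the libraries of a genotype came from separate animals, so every p-value sets a difference against a spread that may be technical.

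METTL3 and METTL14 form the heart of the writer. METTL3 holds the catalytic site and binds the methyl donor S-adenosylmethionine, while METTL14 is its catalytically inactive partner that helps to hold the RNA. The other subunits form a regulatory platform: WTAP keeps the pair in nuclear speckles, VIRMA is a large scaffold, ZC3H13 anchors the platform in the nucleus, CBLL1 (HAKAI) is a RING finger protein, and RBM15 and RBM15B are RNA-binding adaptors that guide the complex to its sites. At this age the mouse lens is a proliferating epithelium in front of elongating fiber cells, and new secondary fibers form at its equator.

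Library totals went from 19110170 to 56098211 gene counts, lower in set 1 than in set 2. Each member had at least 255 counts in every library. Lens fiber markers were abundant in all libraries, with summed levels of 156959 to 194323 CPM (counts-per-million, scaled to library size) over 8 genes in controls and 122203 to 170825 CPM in Mettl3 CKO libraries, where 1 of the 8 was called lower. Epithelial markers summed to 987 to 1410.2 CPM and to 1243 to 1429 CPM over 6 genes, of which 2 were called lower. Macrophage markers were higher in every Mettl3 CKO library (33.8 to 78.8 CPM over 6 genes, against 23.0 to 33.4), with 3 of 6 called higher. Of the markers of endothelium, neural retina, pigment cells, red cells, mesenchyme and surface ectoderm, none that was tested was called. Summed neural retina markers went from 0.573 to 31.2 CPM in controls (median 2.62) and from 10.9 to 103 CPM in Mettl3 CKO libraries (median 22.7). Pigment cell markers, of which 4 of 6 were tested, summed to 3.17 to 6.996 CPM (median 5.96) and to 4.23 to 23.0 CPM (median 16.1). Both medians were higher in Mettl3 CKO libraries, with overlapping ranges, and the summed ranges of the other 4 lists overlapped as well. Among all marker lists only Rpe65, a pigment epithelium gene, was at 0 in all libraries. Whether such cells contribute to the results below was not tested. In bulk lens RNA, fewer cells of a type cannot be told from less RNA per cell.

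Of the 8 subunit genes, 3 rose (Rbm15, Rbm15b and Wtap) and 1 fell (Mettl3) in Mettl3 CKO lenses at an adjusted p under 0.05, while Virma, Cbll1, Zc3h13 and Mettl14 did not pass. Over all tested genes 10.5% were called, 6.5% higher and 4.01% lower. The median log2 fold change of the members was 0.32, beside -0.03 over all genes tested. The libraries of the genotypes did not overlap for 5 members, the 4 called ones and Virma, beside 16.3% of all genes (8.96% with all Mettl3 CKO libraries higher and 7.38% with all lower). These calls were known when the members were chosen, so the counts are a description.

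**Figure D1:**
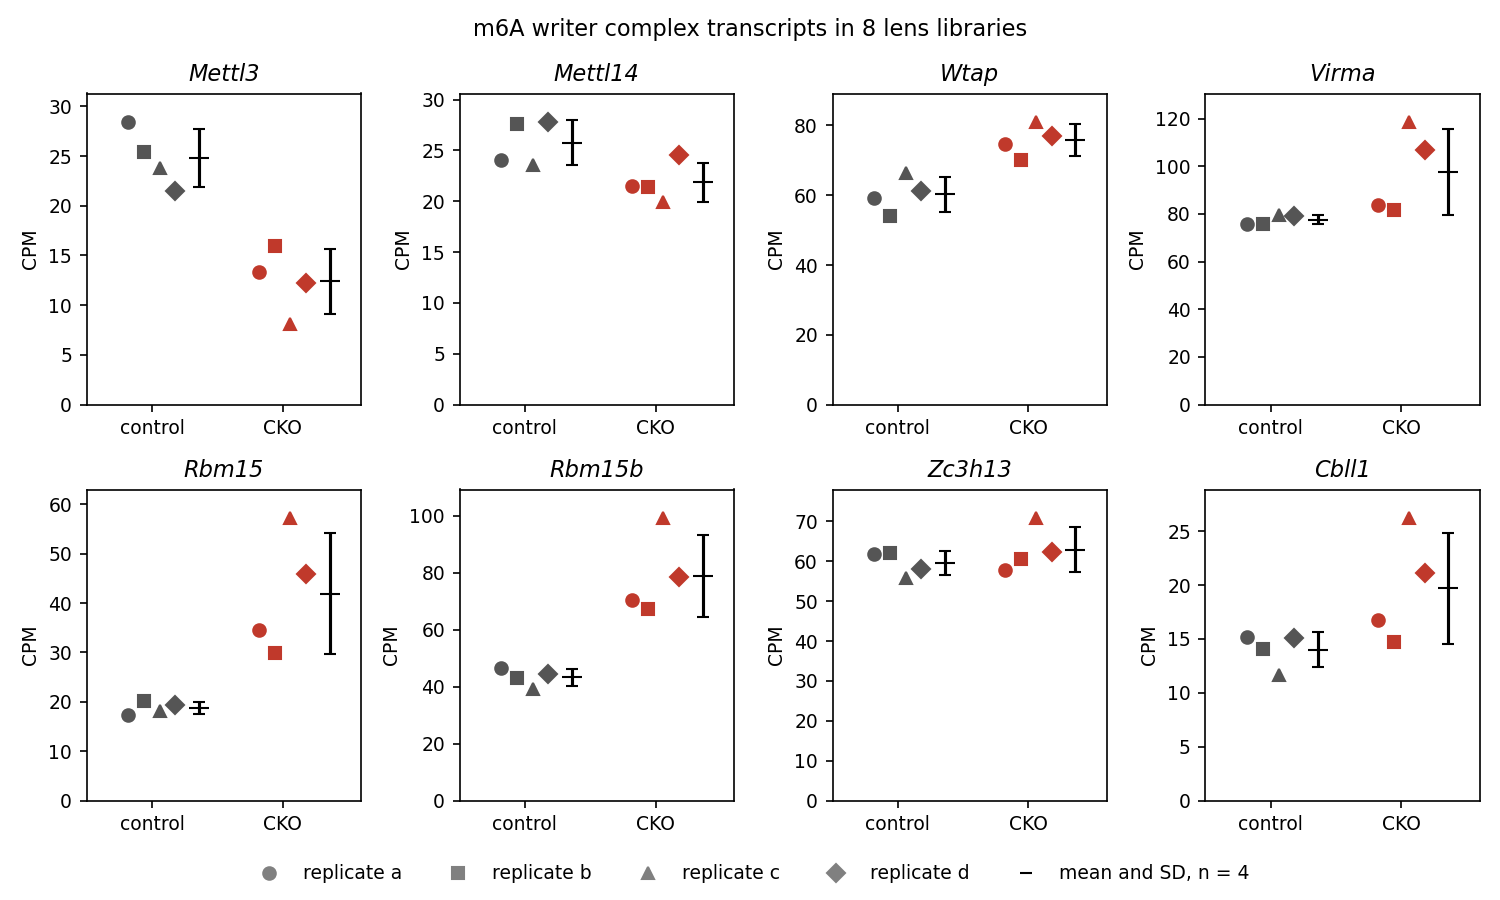
Counts-per-million (CPM, linear axis from 0) of the 8 subunit genes in each library, with a marker shape per replicate letter and the mean and SD of 4 libraries beside each group. Rbm15 and Rbm15b separate the genotypes upward, and Mettl3 separates them downward. The Mettl3 CKO libraries c and d (triangle and diamond) lie highest for every gene but Mettl3 and Mettl14.

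Mettl3 is the targeted gene and checks the labels. It lies on mm10 chromosome 14 (52294841 to 52305128, minus strand), with 11 coding exons, the longest of 405 bases. Mettl3 stood at 28.4, 25.4, 23.8 and 21.4 CPM in control libraries a to d and at 13.4, 15.9, 8.11 and 12.2 CPM in Mettl3 CKO libraries a to d. Every Mettl3 CKO library was below every control. Relative to the control mean, the Mettl3 CKO libraries kept 54.0%, 64.2%, 32.7% and 49.2% of the transcript in replicates a to d, so the loss was partial in each and deepest in c. The log2 fold change was -1.02 (SE 0.15, adjusted p = 0.00259), and the difference of mean log2 CPM was -1.03 with an exact two-sided permutation p of 0.0286, the smallest that 4 against 4 libraries allow. Counts are given per gene, so transcripts that lack a deleted exon would still be counted. Mettl3 shares 933 exonic bases with Tox4 on the opposite strand, and 13.8% of the 50-base words of the Mettl3 transcript also occur in Tox4. The counting's strand setting is not given, and Tox4 itself had a log2 fold change of -0.17 (adjusted p = 0.277).

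Mettl14, the partner in the catalytic pair (chromosome 3, 123368297 to 123386108, minus strand, 11 coding exons), showed a smaller and uncalled difference. Its controls were at 24.1, 27.6, 23.6 and 27.8 CPM and the Mettl3 CKO libraries at 21.5, 21.4, 19.9 and 24.6 CPM. Only Mettl3 CKO library d reached into the control range. The log2 fold change was -0.24 (95% interval -0.48 to 0.01, adjusted p = 0.202), an interval that does not reach the fall of Mettl3. Within each library, the level of Mettl3 per kilobase of exon divided by that of Mettl14 was 1.73, 1.35, 1.47 and 1.13 in controls and 0.909, 1.09, 0.594 and 0.726 in Mettl3 CKO libraries. The pair thus went from more Mettl3 than Mettl14 RNA per length in all 4 controls (mean ratio 1.42 ± 0.250, SD, n = 4) to less in 3 of 4 Mettl3 CKO libraries (0.83 ± 0.214, SD, n = 4). With the length of a single representative transcript in place of all exons the mean ratios were 1.31 and 0.767.

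The RNA-binding adaptor genes showed the largest rises of the complex. Rbm15 (chromosome 3, 107325421 to 107333673, minus strand) was at 17.4, 20.2, 18.2 and 19.4 CPM in controls a to d and at 34.6, 29.8, 57.3 and 45.8 CPM in Mettl3 CKO libraries. Controls were tight, with a coefficient of variation of 6.67%, and the Mettl3 CKO libraries spread over 29.2%, c highest and b lowest. This gave Rbm15 a log2 fold change of 1.12 with an SE of 0.15 (adjusted p = 0.00201), at rank 416 of 16241 genes ordered from the highest. Taken alone, set 1 gave a log2 fold change of 0.76 (adjusted p = 0.0105) and set 2 of 1.49 (adjusted p = 0.0106).

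Rbm15b, a close relative of Rbm15 that acts in the same adaptor role, gave the second largest rise among the members. It lies on chromosome 9 (106880918 to 106887428, minus strand). Its controls were at 46.5, 43.0, 39.2 and 44.4 CPM, and the Mettl3 CKO libraries at 70.4, 67.2, 99.2 and 78.3 CPM. No library of either genotype came near the other group. Its log2 fold change was 0.86 with an SE of 0.13 (adjusted p = 0.00267, rank 772). Set 1 alone gave 0.60 (adjusted p = 0.0105), and set 2 alone 1.13 (adjusted p = 0.0186). The transcripts of Rbm15 and Rbm15b share no 50-base word with each other, so no such word could be counted under both names. Rbm15b lies wholly inside the annotated span of Manf on the same strand, with 14 exonic bases in common, and shares 75 exonic bases with Dcaf1 on the other. Dcaf1 rose by 0.43 (SE 0.11, adjusted p = 0.0383), and 0.402% of the words of Rbm15b occur in it. Manf had a log2 fold change of 0.30 (adjusted p = 0.150).

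Per length, Rbm15 was the rarer adaptor RNA in every library. Its level per kilobase of exon was 0.328 to 0.412 of that of Rbm15b in controls and 0.389 to 0.513 in Mettl3 CKO libraries, ranges that overlap. Spen, the third member of this family of RNA-binding proteins and not a writer subunit, had a log2 fold change of 0.21 (95% interval -0.13 to 0.55, adjusted p = 0.433).

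Among the scaffold subunits, Wtap rose by the least of the called members. Wtap (chromosome 17, 12966796 to 12994169, minus strand) was at 59.3, 54.1, 66.3 and 61.1 CPM in controls and at 74.7, 70.1, 81.1 and 77.1 CPM in Mettl3 CKO libraries. The groups did not overlap, and the nearest libraries, control c and Mettl3 CKO b, stood at 66.3 and 70.1 CPM. The fitted log2 fold change of Wtap was 0.33 with an SE of 0.09 (adjusted p = 0.0361), and 0.33 from set 1 and 0.35 from set 2, the closest pair of values among the 8 genes. The call ended when any 1 library other than control c was left out (adjusted p up to 0.135), while the fitted value stayed between 0.30 and 0.36. With all 8 libraries it also ended with no filter on low counts (adjusted p = 0.0750) and with no set term (adjusted p = 0.0641). Of the 50-base words of the Wtap transcript, 18.1% occur in other annotated genes, most of them in Gm14292. Gm14292 held 31 to 92 counts per library beside 1228 to 4616 for Wtap, with a log2 fold change of -0.06 (adjusted p = 0.914).

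Virma, which encodes the largest scaffold (chromosome 4, 11485958 to 11550684, plus strand, 24 coding exons), separated the genotypes without passing the test. Controls lay between 75.8 and 79.7 CPM, and Mettl3 CKO libraries a to d were at 83.9, 81.6, 118.7 and 106.9 CPM. The libraries of set 2 were far above the controls and those of set 1 just above them. The log2 fold change was 0.32 (95% interval 0.09 to 0.54, adjusted p = 0.0733), of 0.10 in set 1 and 0.55 in set 2. Zc3h13, the anchor of the platform (chromosome 14, 75284373 to 75344426, plus strand), overlapped between the genotypes, at 55.9 to 62.2 CPM in controls and 57.8 to 70.9 CPM in Mettl3 CKO libraries. Its log2 fold change was 0.08 (95% interval -0.13 to 0.29, adjusted p = 0.648), -0.09 in set 1 and 0.27 in set 2.

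Cbll1, the RING finger subunit gene (chromosome 12, 31484829 to 31499616, minus strand), was the rarest member by CPM in controls. It stood at 15.2, 14.0, 11.7 and 15.1 CPM in controls and at 16.7, 14.7, 26.2 and 21.1 CPM in Mettl3 CKO libraries. Only library b of the Mettl3 CKO group lay within the control range. The log2 fold change was 0.47 (95% interval 0.10 to 0.84, adjusted p = 0.103). It was 0.08 from set 1 alone and 0.86 from set 2 alone. An antisense gene, Gm29542, covers 704 exonic bases of Cbll1 and is listed at 0 in all 8 libraries.

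**Figure D2:**
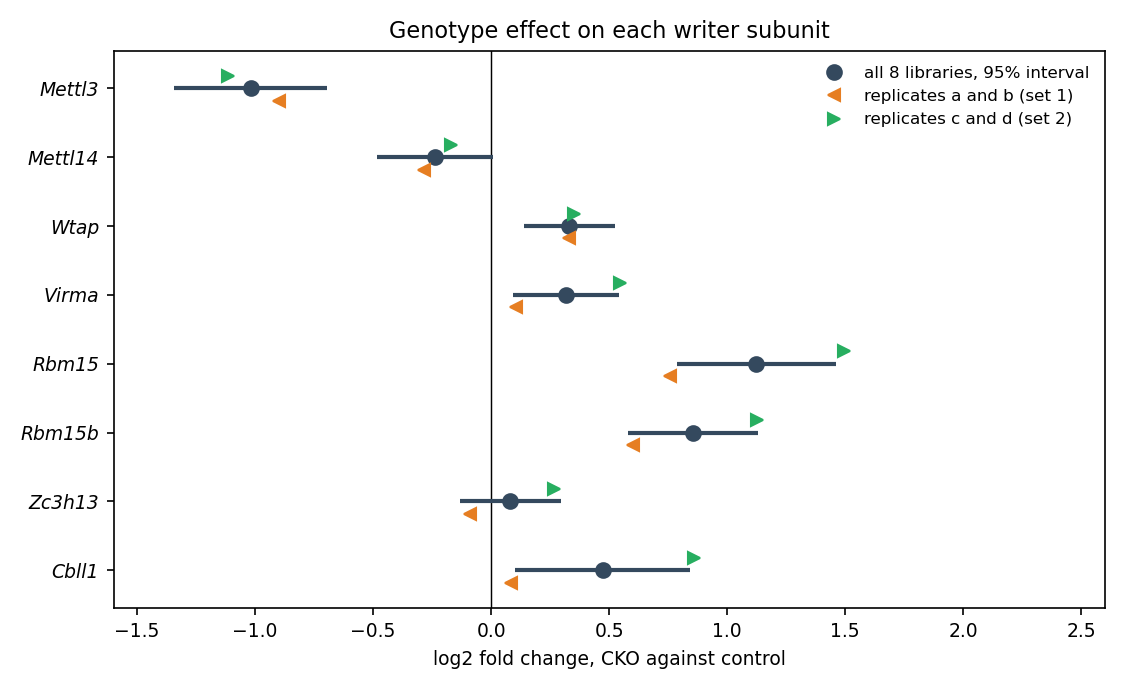
Log2 fold change of Mettl3 CKO against control for each subunit gene (circles, with the 95% interval of the fit over 8 libraries), and the same from replicates a and b alone (left triangles) or c and d alone (right triangles). The value from c and d lies to the right of that from a and b for all members but Mettl3.

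The direction of the fitted change was the same in both sets for 7 of 8 members, Zc3h13 being the exception, beside 59.2% of 15573 genes fitted in both. Within set 1 alone, with 2 libraries a group, Mettl3, Rbm15 and Rbm15b were called, beside 8.63% of all genes, and within set 2 alone the same 3 genes, beside 4.99%. The difference between sets was tested as an interaction of genotype and set. Its unadjusted p was 0.00883 for Rbm15, 0.0157 for Cbll1, 0.0354 for Rbm15b and 0.0373 for Virma, with a larger rise in set 2 each time. None passed after adjustment (adjusted p = 0.184, 0.208, 0.268 and 0.274). After adjustment, 0% of the 16241 tested genes passed the interaction test in edgeR, and 2662 had an unadjusted p under 0.05.

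The Mettl3 CKO libraries fell into the same order for most subunits. From the highest to the lowest the order was c, d, a, b for Rbm15, Rbm15b, Virma, Wtap and Cbll1, an order held by 11% of all tested genes. Mettl3 had the reverse order, b, a, d, c, as did 10.3% of all genes. Mettl3 CKO library c thus had the least Mettl3 and the most of all 8 libraries for 6 members (Rbm15, Rbm15b, Virma, Wtap, Cbll1 and Zc3h13), beside 18% of all genes. In that library Rbm15 was at 304.7% of the control mean, Rbm15b at 229.4%, Cbll1 at 187.6% and Virma at 152.8%. Libraries c and d of the Mettl3 CKO group also had the lowest shares of counts in crystallin genes, 20.4% and 21.9%, against 25.1% to 28.7% in the other 6. They are the set 2 libraries of that group and were sequenced more deeply than a and b. Both orders place c and d together at an end, so the orders cannot be separated from the difference between sets. The part of set, crystallin share or depth in these orders was not tested. Leaving out library c of the Mettl3 CKO group kept Mettl3, Rbm15 and Rbm15b called.

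**Figure D3:**
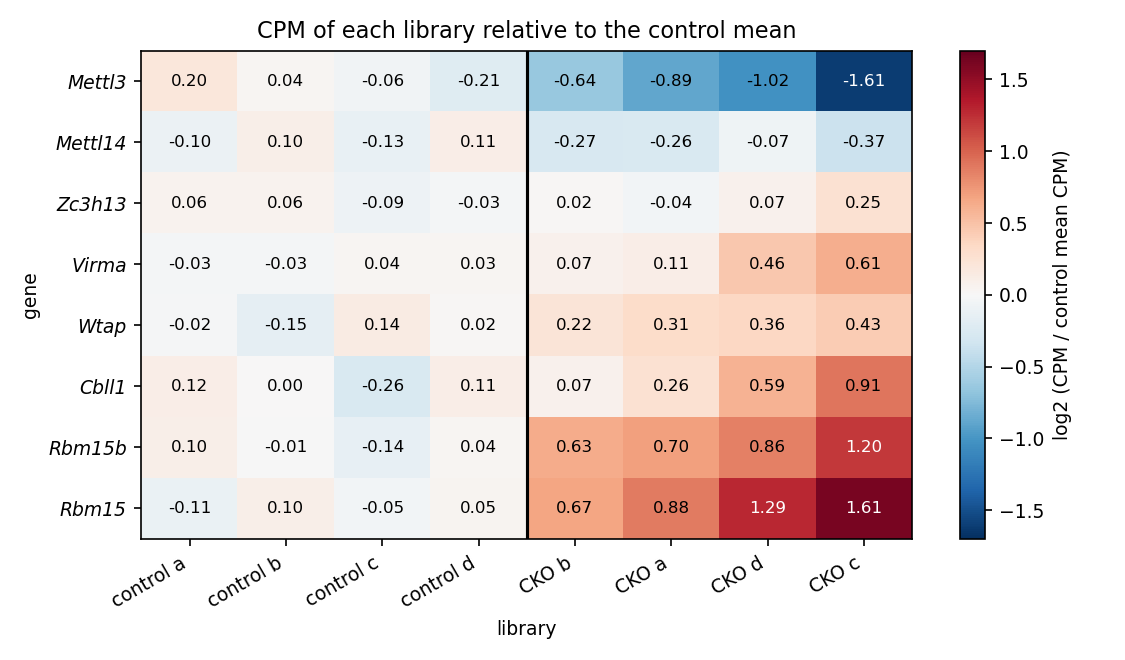
Log2 of the CPM of each library over the mean of the 4 controls, for the 8 subunit genes (rows) with the Mettl3 CKO libraries ordered by their Mettl3 level (columns). Colours run from blue (below the control mean) to red (above it), and the darkest cells are those of Mettl3 and Rbm15 in Mettl3 CKO library c.

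Taken over both sets together, the spread between Mettl3 CKO libraries was wider than between controls for 7 of the 8 members, Wtap being the exception. For Mettl14 the coefficients of variation hardly differed (8.72% in controls and 8.86%). These spreads include the difference between sets given above, and its part in them was not tested. The coefficient of variation went from 2.63% to 18.4% for Virma, from 7.13% to 18.3% for Rbm15b and from 11.7% to 26.0% for Cbll1. Over all tested genes 50.5% had the wider spread in Mettl3 CKO libraries, and the median coefficients were 16.6% in either genotype. In controls, 8 of 8 members were therefore less variable than the median gene. That median includes genes with far fewer counts than the members, and genes of like counts were not compared.

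Per kilobase of exon, Virma, Wtap, Zc3h13 and Rbm15b lay above the catalytic pair in controls, while Rbm15 lay below it. The order was Virma (10.9 ± 0.286 CPM per kilobase, SD, n = 4), Wtap (9.64 ± 0.802), Zc3h13 (9.47 ± 0.482), Rbm15b (6.64 ± 0.474), Mettl3 (4.88 ± 0.579), Cbll1 (3.49 ± 0.408), Mettl14 (3.47 ± 0.303) and Rbm15 (2.53 ± 0.169). Wtap and Zc3h13 overlapped, as did Cbll1 and Mettl14, and the other neighbours did not. In Mettl3 CKO lenses Mettl3 was the last of the 8 (2.44 ± 0.641), its range overlapping that of Mettl14 (2.95 ± 0.261), and Rbm15 had moved from the last place to the fifth (5.64 ± 1.65), overlapping Cbll1. Rbm15b reached the level of Wtap (12.1 CPM per kilobase for each). The order depends on the length used, since the annotated exons of Mettl3 cover 5076 bases and its representative transcript 2025. Per kilobase of the representative transcript, Wtap came first in both genotypes (29.2 in controls) and Mettl3 went from the second to the seventh place. By that length Mettl3 (12.2) lay above Zc3h13 (9.67) and Rbm15b (6.64) in controls, and its range overlapped that of Virma (11.9). Mettl14 (9.40) also lay above Rbm15b and overlapped Zc3h13. Cbll1, not Rbm15 or Mettl3, was then the last in both genotypes. By that length Wtap stood at 36.8 and Rbm15b at 12.1 in Mettl3 CKO lenses, so they were not level. Summed over the 8 genes, the libraries held 318.2 to 328.6 CPM in controls and 361.3 to 481.4 CPM in Mettl3 CKO lenses.

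Rbm15 and Rbm15b differ from the other subunit genes in exon structure, which played no part in choosing the members. Rbm15b has a single coding exon of 2661 bases. Rbm15 has 2, of 2866 and 20 bases, so nearly all of its coding sequence lies in the first. The other 6 have between 6 coding exons (Cbll1) and 24 (Virma), and their longest coding exons measure 302 bases (Mettl14) to 1191 bases (Zc3h13). The median tested protein-coding gene has 8 coding exons, the longest of 288 bases. The only coding exon junction of Rbm15 is shown with the second exon in capitals (coding bases 2852 to 2881 of the GENCODE M21 transcript, chromosome 3, minus strand).

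Rbm15 exon junction: tgatcattgtccgtgCAAAACTGGTGAACA

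The letters GGACT are the most common core in which the writer methylates the adenosine in mRNA. The following stretches of 30 coding bases, 1 for each called gene, show such places with the core in capitals, and the Rbm15b stretch holds 2 of them. They show where the letters occur, and methylation was not measured here. The coding sequence of Rbm15 holds 2 such cores, that of Rbm15b 3, of Wtap 2 and of Mettl3 3, or 0.693, 1.13, 1.68 and 1.72 per kilobase, beside a median of 1.07 and at least 1 core in 76.8% of tested protein-coding genes. Per kilobase, Rbm15 thus lay below the median gene and the other 3 above it.

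Rbm15 coding bases 173 to 202: cccgtggcggtgaGGACTccagttctcgtg
Rbm15b coding bases 876 to 905: gGGACTgtctcgagagcgagccctGGACTa
Wtap coding bases 745 to 774: ccaagtaccagcaGGACTacatcttctgaa
Mettl3 coding bases 32 to 61: ataagaaacagctGGACTcgcttcgcgaga

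Genes with 1 or 2 coding exons, like Rbm15b and Rbm15, had the highest shares of calls upward. The classes were drawn after the members' values had been seen. Among 927 tested genes with 1 coding exon, 20.1% were called higher and 1.73% lower, and among 658 genes with 2 coding exons 15.96% and 2.28%. The shares were 5.86% and 3.35% among 4025 genes with 6 to 10 coding exons, the class of Wtap and Cbll1. They were 4.97% and 5.05% among 3723 genes with 11 to 20, the class of Mettl3, Mettl14 and Zc3h13, and 3.99% and 7.48% among 1804 genes with 21 or more, the class of Virma. The median log2 fold change of genes with 1 coding exon was 0.25, with 0.27 in set 1 and 0.25 in set 2, against -0.01 over all 14021 tested protein-coding genes.

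By the longest coding exon, the share called higher went from 3.24% of 7214 genes under 300 bases to 18.5% of 514 genes with 2000 bases or more, the class of Rbm15 and Rbm15b. The medians of these end classes were -0.02 and 0.08 in set 1 and -0.11 and 0.33 in set 2. Of 156 genes with both at most 2 coding exons and one of 2000 bases or more, a class drawn after the structure of Rbm15 and Rbm15b had been seen, 27.6% were called higher and 0 lower. After removal of trends with transcript length and with GC content, the shares in that class were 32.7% and 3.21%. Over all 14021 tested protein-coding genes the shares called higher and lower were 7.31% and 4.19%, and 9.94% and 8.57% with those trends removed. The log2 fold changes of Rbm15 and Rbm15b, printed above, exceeded the median of the class, 0.35. Both genes are counted in the class and their calls were known when it was drawn, so this is a description. Within these classes genes are not replicates, and no p is given.

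**Figure D4:**
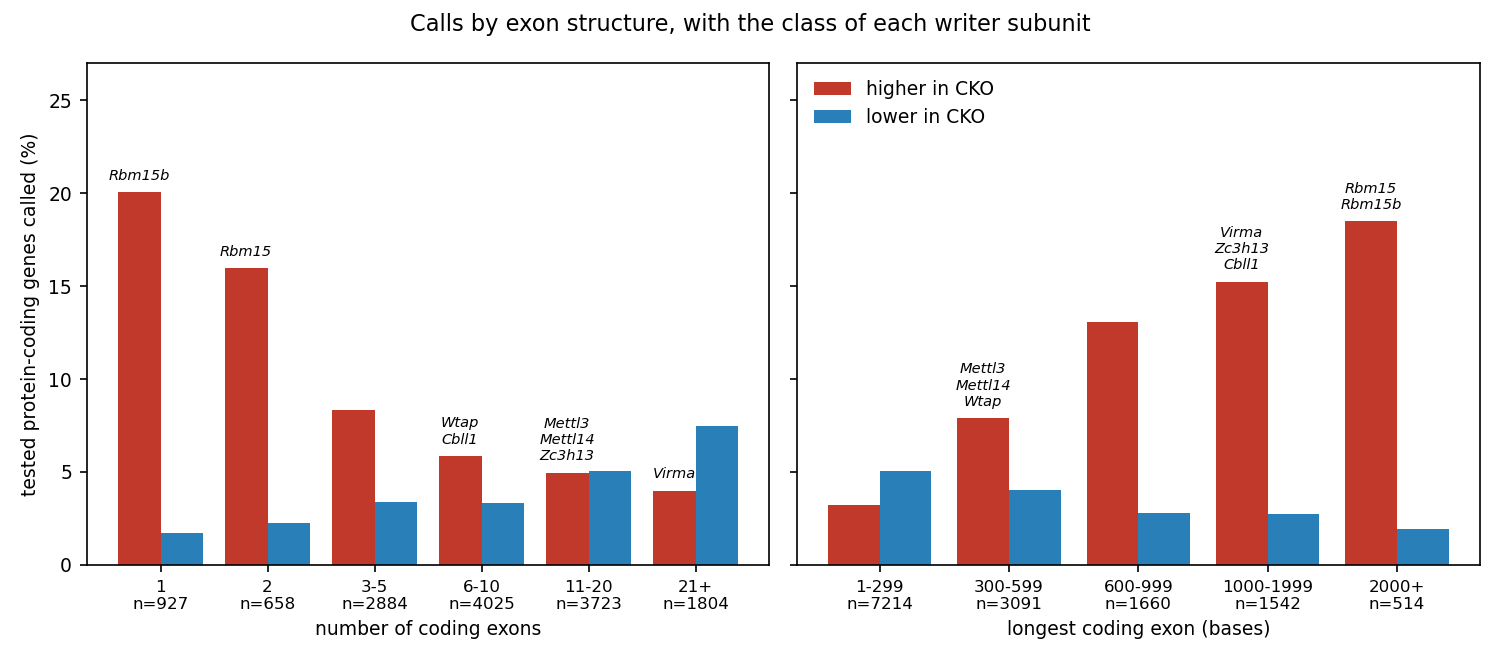
Share of tested protein-coding genes called higher (red) or lower (blue) in Mettl3 CKO lenses, in percent, by the number of coding exons (left) and by the length of the longest coding exon in bases (right), with the number of genes under each class and the class of each writer subunit named above the red bar. The share called higher falls with the number of coding exons and climbs with the length of the longest one.

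Beyond the writer complex, 30 genes of the m6A pathway and its partners were tested, and 3 rose while none fell, a share near the 6.5% called higher and 10.5% called in all among tested genes. All 3 were among the 5 readers of the YTH family, which bind m6A: Ythdf2 (log2 fold change 1.24, adjusted p = 0.000437), Ythdf1 (0.79, adjusted p = 0.00254) and Ythdc1 (0.36, adjusted p = 0.0496). The Ythdc1 call lies at the edge of the threshold, and the values of these 3 genes under the other settings are not given here. Ythdf2, which promotes the decay of methylated mRNA, and Ythdf1 have longest coding exons of 1584 and 1521 bases. Ythdf3 has a like structure (1599 bases) and did not pass (0.20, 95% interval 0.00 to 0.40, adjusted p = 0.189). The called Ythdc1 has 17 coding exons, the longest of only 427 bases. Spen and the m6A-binding Prrc2a, with longest coding exons of 8020 and 1842 bases, were not called (log2 fold changes 0.21 and -0.09). The erasers, which remove the mark, were Fto at 0.02 (95% interval -0.26 to 0.31) and Alkbh5 at 0.13 (-0.14 to 0.41).

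None of the 7 other m6A-binding proteins tested was called, with log2 fold changes from -0.15 (Fmr1) to 0.32 (Igf2bp1). The same held for 6 genes of methyltransferases that act on other RNA adenosines, or of their partners, from -0.33 (Mettl5) to 0.12 (Mettl16). Among 3 genes of the S-adenosylmethionine cycle, Mat2a, whose product makes the methyl donor, had -0.13 (95% interval -0.32 to 0.07), with every Mettl3 CKO library below every control (adjusted p = 0.396). Pcif1, which methylates adenosines next to the cap, likewise had all Mettl3 CKO libraries below the controls (-0.19, 95% interval -0.39 to -0.0039, adjusted p = 0.181), as had 7.38% of all genes. The exon junction complex, which marks spliced junctions and limits m6A near them, gave no call among 6 genes, from -0.16 (Rnps1) to 0.36 (Magoh). The median over all 30 was 0.01.

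The genes closest in pattern to a member were found by the root mean square difference of log2 CPM over the 8 libraries, each gene centred on its mean. Closest to Rbm15 were Bag5 (0.101), the reader gene Ythdf2 (0.106) and Itpripl1 (0.121), against a median of 0.681 over all genes compared. Bag5 and Itpripl1 have 1 coding exon each, of 1341 and 1641 bases. Rbm15b was closest to Arhgef10l (0.0571), Fdx1l (0.0621) and Gpr161 (0.0625), which have 27, 5 and 5 coding exons. Mettl3 was most like Crybb2 (0.125), a beta crystallin gene, Ctnna2 (0.144) and Mgarp (0.155), whose log2 fold changes were between -0.92 and -1.05. For Wtap the closest were Tpx2 (0.0344), Rassf8 (0.0445) and Angel2 (0.0513), and for Virma Dlgap4 (0.0457), Bcl2l11 (0.0486) and Kif3b (0.0565). Mettl14 was closest to Dis3l (0.0352), Rpn2 (0.0381) and Rufy1 (0.0453), Zc3h13 to Ampd2 (0.0390), Ptdss2 (0.0419) and Tut7 (0.0423), and Cbll1 to Rnf19a (0.0680), Tulp4 (0.0682) and Zfp609 (0.0744). Such closeness includes the genotype difference itself, so it ranks genes with a change of like size.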

How the data were processed

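RNA was measured in 8 lens libraries, 4 per genotype. The submitters' processing notes name CASAVA, HISAT2, featureCounts and the build mm10. Versions, strand setting and annotation release were not known here. What the authors deposited is a single table of raw read counts by Ensembl gene. Of 43432 IDs, 42548 matched GENCODE M21 (mm10), which gave symbols, coordinates, exon lengths and, for the principal or else longest coding transcript, exon structure and sequence. The unmatched IDs took at most 0.105% of a library and were tested under their IDs.

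The test was that of edgeR 4.0.16 under R 4.3.3 (filterByExpr with a minimum count of 10 and a minimum total of 15, TMM, robust quasi-likelihood F-test, set and genotype as terms), with Benjamini-Hochberg adjustment over all 16241 tested genes and a threshold of 0.05. Adjusted p-values and intervals are edgeR's except where stated. CPM values are TMM-scaled, with a prior count of 2 on the log2 scale. The code was tested on simulated counts. Libraries of a genotype differed beyond sampling noise (a chi-square of at least 15.3 for each degree of freedom), so none was merged. The alternatives were other scalings, DESeq2 1.42.0, other filters and terms, single sets, trend removal and leaving out each library. The members, lists and the rule for named genes (members, every called list gene and up to 3 others per list, and the 3 genes closest to each member in pattern) were chosen with earlier results of these data known.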

Additional observations from a re-analysis of the deposited data

How the results depend on the processing

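Mettl3, Rbm15 and Rbm15b kept their direction and their call under all 11 other settings and all 8 fits without 1 library. Mettl14 was called under none of them, nor was Zc3h13, whose sign turned within set 1 (-0.088). The Wtap call ended with no filter on low counts (0.33, adjusted p = 0.0750), with no set term (0.33, adjusted p = 0.0641), with the replicate block (0.33, adjusted p = 0.108), within set 1 (0.33, adjusted p = 0.100) and within set 2 (0.35, adjusted p = 0.150). Without 1 library its value went from 0.30 to 0.36. Virma passed with length and GC trends removed (0.33, adjusted p = 0.0312) and Cbll1 with no filter (0.47, adjusted p = 0.0319). The number of called members went from 3 to 5. Over all genes, 1706 were called, 665 with the replicate block, 858 in set 2 alone, 2596 with trends removed, and 503 (without control d) to 2553 (without control c) without 1 library. The count was also past 1.5 times lower without control b (780), Mettl3 CKO c (846) or Mettl3 CKO d (651). The Mettl3 difference of log2 CPM was -0.84 to -1.16 without 1 library, where the smallest exact p is 0.0571. Replicate letters did not pair the libraries: deviations of same-letter libraries correlated across genes at -0.06, 0.09, -0.19 and 0.28 (a to d), so the replicate block rests on a shared letter only. Causes were not tested. No member group had an outlying library by Dixon's test at 95%.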
